A study of Mus musculus with 2 samples.

Results

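The enzymes of glycolysis and of the tricarboxylic acid cycle were followed through RNAseq of the ventral midbrain, the part of the brain that holds the substantia nigra and the ventral tegmental area. The list held 39 genes, picked by symbol as enzymes or glucose transporters of these pathways, out of 31252 gene entries. Of these, 19 covered glucose uptake, glycolysis and lactate formation (here called glycolysis), and 20 covered the entry of pyruvate into mitochondria and the tricarboxylic acid cycle (here called the cycle). All 39 had an entry and passed the minimum of a mean of 10 counts, as did 15246 gene entries in all.

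The comparison was between 1 library labelled Control, with Slc6a3-Cre alone, and 1 library labelled OE, with Slc6a3-Cre and the CAG-S-COUP-TFII allele, both of mice 2 months old and of incipient congenic C57BL/6 background. The labels do not say how many mice each library holds. Slc6a3-Cre is active in cells that use the dopamine transporter gene, so COUP-TFII is meant to be overexpressed in dopaminergic neurons only, while the tissue sequenced holds all cells of the region. By the study's methods, control and overexpressing littermates came from a cross with floxed Tfam and a tdTomato reporter. The labels of these libraries name neither allele, and if the mice came from that cross, both groups carried 1 floxed Tfam allele beside Cre. Expected counts, which are estimated numbers of reads per gene, summed to 16984336 for the library labelled Control and 21326632 for that labelled OE. With 1 library per group, no difference below has a replicate check. Values are given as normalised counts (counts scaled to a common depth) and as log2 fold changes (OE label over Control label). The 95% counting intervals beside them cover counting error only and compare 2 libraries, not genotypes.

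Nr2f2 encodes COUP-TFII, so its level bears on the labels, but in bulk tissue it is only a partial check. The study measured the rise in COUP-TFII RNA in isolated dopaminergic neurons, while these counts come from all cells of the region. The counts were 637 in the library labelled Control against 377 in that labelled OE, or -1.07 on the log2 scale (interval -1.26 to -0.88). This is opposite to the direction the labels name. The libraries also differ in markers of other cells and of thalamus, as given below, so this value alone does not settle the labels. Every direction given here follows the labels all the same, and it turns around if the labels are exchanged. The labels also name the cell type as dopaminergic neurons. Markers of other cells were abundant in both libraries, with 128974 and 139810 counts for the myelin gene Mbp against 2499 and 9354 for Th, the enzyme that starts dopamine synthesis. All 12 dopaminergic markers had higher values under the OE label, by a median log2 value of 1.22, and in bulk tissue more cells of a type and more RNA per cell cannot be told apart.

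Glycolysis splits glucose in the cytosol into pyruvate, which is either reduced to lactate or moved into mitochondria. There the pyruvate dehydrogenase complex turns it into acetyl-CoA, and the cycle oxidises that to carbon dioxide and passes the electrons to the respiratory chain. The brain runs mainly on glucose, and its cells divide the work. Astrocytes are rich in aldolase C and hold most of the brain's pyruvate carboxylase, neurons use the glucose transporter encoded by Slc2a3 and the enolase encoded by Eno2, and the endothelium of brain vessels carries much of the transporter encoded by Slc2a1.

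Most members were slightly higher in the library labelled OE, and glycolysis more so than the cycle. The median log2 fold change was 0.12 over the 19 glycolysis genes and 0.056 over the 20 cycle genes, a difference (cycle minus glycolysis) of -0.063, while the median of all 15246 tested genes was 0.0046. Without the 2 glucose transporters, which are not enzymes, the difference was -0.040. In glycolysis 17 genes were above 0 and 2 below, and in the cycle 13 were above and 7 below, against 51.0% above 0 among all tested genes. The shifts were small, since single members ran from -0.21 (Hk2) to 0.22 (Suclg1). Of the 39 members, 2 were higher by more than log2 0.2, the threshold the study used, and 1 was lower. Among all tested genes 17.9% were higher and 16.6% lower by as much, so members did not pass this threshold more often than genes at large.

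The members are abundant, and abundant genes show smaller differences and narrower counting intervals. Of the 4303 genes that averaged 1000 counts or more, 7.95% were higher by more than log2 0.2 and 6.95% lower, and their median was 0.0074. Of the 35 members in that class, 2 were higher and 0 lower by as much. The counting interval lay above 0 for 15 of 19 glycolysis genes and 8 of 20 cycle genes, and below 0 for 0 and 1. Over all tested genes it lay above 0 for 15.8% and below 0 for 14.4%, and over those that averaged 1000 counts or more for 25.4% and 21.8%. Within that class it lay above 0 for 15 of 18 glycolysis genes and 8 of 17 cycle genes. The class does not match the lists for depth. Its 18 glycolysis genes summed to 196444 and 211538 normalised counts under the Control and OE labels, and its 17 cycle genes to 72189 and 75451. More counts give narrower intervals, so these shares of intervals are not compared at equal depth, and the part of depth was not tested. An interval away from 0 says that the 2 libraries differ beyond counting error, not that the genotypes do.

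Summed over its 19 genes, glycolysis took 1.04% of all counts in the library labelled Control (exact binomial 95% interval 1.03 to 1.04) and 1.11% in that labelled OE (1.10 to 1.11). The 20 cycle genes took 0.392% (0.389 to 0.395) and 0.404% (0.401 to 0.407). Both shares were thus larger in the library labelled OE. The cycle gave 37.7 counts for every 100 counts of glycolysis in the library labelled Control and 36.5 in that labelled OE, a ratio that does not depend on scaling between libraries.

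**Figure D1:**
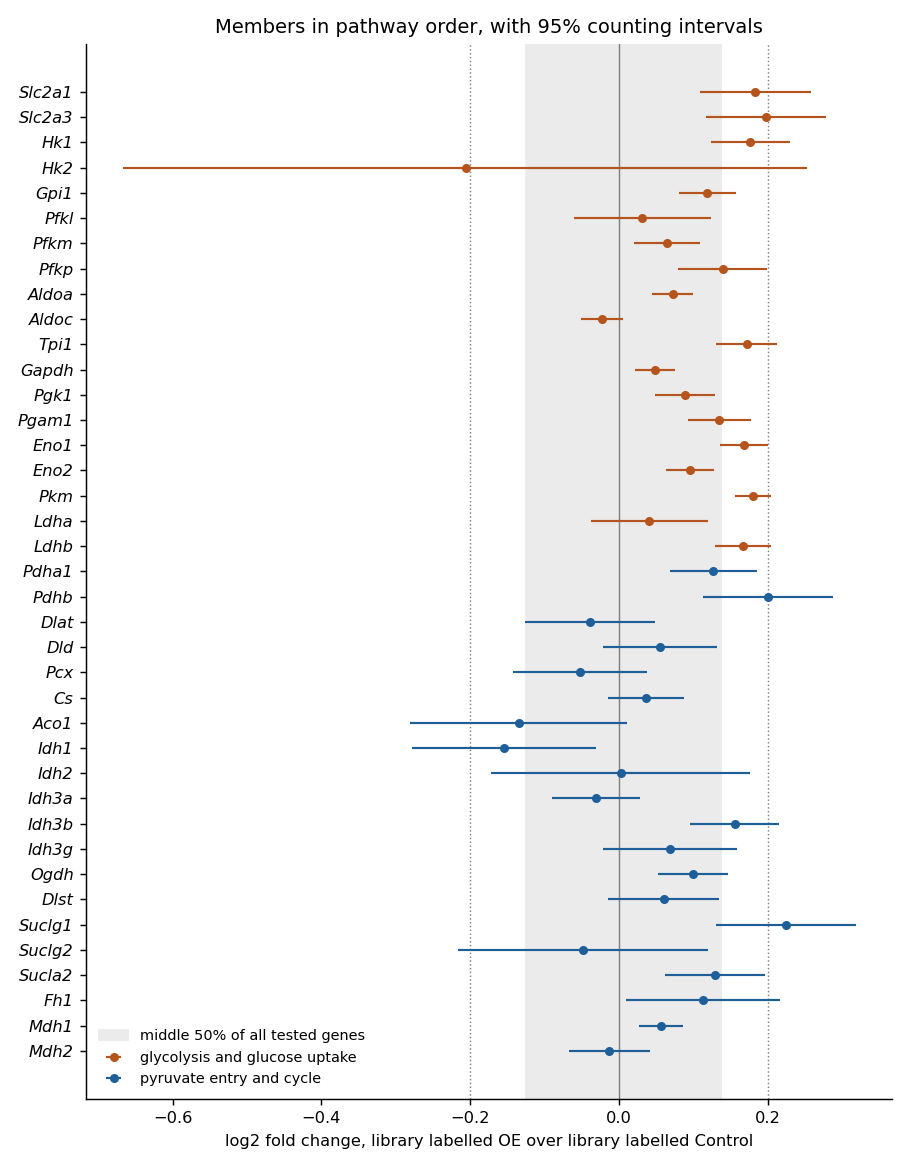
The log2 fold change (OE label over Control label) of each of the 39 members is plotted in pathway order, with bars for its 95% counting interval, a dotted line at 0.2 on either side and grey for the middle 50% of all 15246 tested genes. Glycolysis genes lie to the right of 0 except Aldoc and Hk2, and cycle genes spread around a median of 0.056.

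Glucose enters through the transporters, and both were higher under the OE label. Slc2a1 had 2806 normalised counts in the library labelled Control and 3186 in that labelled OE, or a log2 fold change of 0.18 (interval 0.11 to 0.26). Slc2a3 had 2363 and 2709, with 0.20 (interval 0.12 to 0.28). Hexokinase, which traps glucose as glucose 6-phosphate, was nearly all Hk1, the form bound to mitochondria in brain. Hk1 went from 5454 to 6164 normalised counts, 0.18 on the log2 scale (interval 0.12 to 0.23). Hk2, the form best known from muscle and tumours, had only 79 and 85 counts, so its value of -0.21 is loose (interval -0.67 to 0.25) and no difference was detectable at this depth. Gpi1, which turns glucose 6-phosphate into fructose 6-phosphate, had 10557 and 11462 normalised counts and a log2 fold change of 0.12 (interval 0.080 to 0.16).

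Phosphofructokinase commits the sugar to glycolysis, and its 3 genes, named for liver, muscle and platelet, were all measured. Pfkm had 8238 and 8615 normalised counts in the libraries labelled Control and OE, or a log2 fold change of 0.064 (interval 0.021 to 0.11). Pfkp had 4332 and 4770.2, with 0.14 (interval 0.079 to 0.20). Pfkl had 1931 and 1973, with 0.031 (interval -0.060 to 0.12), so for the liver form alone of the 3 the interval held 0. Aldolase then splits the sugar, and its forms parted. Aldoa, the form found in most tissues, went from 20838 to 21904 normalised counts, 0.072 on the log2 scale (interval 0.044 to 0.10). Aldoc, the astrocyte-rich form, went from 20405 to 20079, -0.023 (interval -0.052 to 0.0050), and with Hk2 was one of the glycolysis genes below 0.

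The enzymes that handle the resulting triose phosphates, all coded by 1 main gene each, were higher under the OE label by unequal amounts. Tpi1, which interconverts the triose phosphates, had 9412 and 10599 normalised counts, a log2 fold change of 0.17 (interval 0.13 to 0.21). Gapdh, the oxidising step and a gene often taken as a reference for loading, had 22417 and 23186, only 0.049 apart (interval 0.022 to 0.075). The interval of Tpi1 lay wholly above that of Gapdh, so the neighbouring steps differed by unequal amounts. Pgk1, the first step to make ATP, had 9769 and 10391, with 0.089 (interval 0.049 to 0.13). Pgam1, the mutase, had 8639 and 9486, with 0.13 (interval 0.093 to 0.18). Both lay between Gapdh and Tpi1.

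Enolase, pyruvate kinase and lactate dehydrogenase close the pathway. Eno1, the enolase of most tissues, had 14957 and 16806 normalised counts, a log2 fold change of 0.17 (interval 0.14 to 0.20). Its near copy Eno1b had 576.5 and 701.6 counts, and since reads may be split between such copies, the sum of both was also taken, with 0.16 (interval 0.13 to 0.19). Eno2, the neuronal enolase, had 14838 and 15855, with 0.096 (interval 0.063 to 0.13), below the interval of Eno1. Pkm, which makes pyruvate and a further ATP, was the member with the most counts, 25733 and 29160.4 after normalisation, and a log2 fold change of 0.18 (interval 0.16 to 0.20). Of the lactate dehydrogenases, Ldhb, the subunit of the heart-type enzyme, had 11164 and 12528, with 0.17 (interval 0.13 to 0.20). Ldha, the subunit of the muscle-type enzyme, had 2590.5 and 2664, with 0.041 (interval -0.038 to 0.12), an interval that held 0 and lay below that of Ldhb.

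In the cycle, the values past log2 0.2 were in pyruvate entry and in the ligase that makes succinate. The pyruvate dehydrogenase complex has a first enzyme of subunits Pdha1 and Pdhb. Pdha1 had 4577 and 4995 normalised counts, a log2 fold change of 0.13 (interval 0.068 to 0.18). Pdhb had 2009.7 and 2309, with 0.20 (interval 0.11 to 0.29), which put it just past the threshold of log2 0.2, while Slc2a3, at 0.197, fell just short of it. Pdhb also fell short of it after scaling by total counts (0.185) or by DESeq2 size factors (0.199). Slc2a3 passed it only after scaling by the upper quartile (0.211), where Pdhb passed it too (0.214). The remaining enzymes of the complex were Dlat and Dld. Dlat had 2165 and 2106, with -0.039 (interval -0.13 to 0.048). Dld had 2745 and 2853, with 0.055 (interval -0.021 to 0.13), and both intervals held 0. The interval of Dlat lay wholly below that of Pdhb, so the parts of the complex did not share 1 difference. Pcx, pyruvate carboxylase, which refills the cycle with oxaloacetate, had 2039 and 1966 normalised counts, with -0.053 (interval -0.14 to 0.038), and its interval held 0.

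The first steps of the cycle gave low values. Cs, citrate synthase, had 6029 and 6182 normalised counts, a log2 fold change of 0.036 (interval -0.015 to 0.088). Aco1, the cytosolic aconitase, which also acts as an iron-sensing protein, had 814 and 741, or -0.13 (interval -0.28 to 0.011). The NADP-linked isocitrate dehydrogenases, which feed reducing power to synthesis and antioxidant defence, were Idh1 in the cytosol and Idh2 in mitochondria. Idh1 had 1134 and 1018, with -0.15 (interval -0.28 to -0.031), and was the one member whose interval lay below 0. Idh2 had 547 and 548, with 0.0022 (interval -0.17 to 0.18), a value whose sign turned with the scaling. Of the low values in the cycle, the lowest were thus those of the cytosolic enzymes Idh1 and Aco1. The other cytosolic enzyme of this list, Mdh1, was above 0, with 18298 and 19020.1 normalised counts and 0.056 (interval 0.026 to 0.085).

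The NAD-linked isocitrate dehydrogenase, one of the regulated steps of the cycle, is built from subunits of Idh3a, Idh3b and Idh3g, and these parted. Idh3b had 4378 and 4876 normalised counts, a log2 fold change of 0.16 (interval 0.096 to 0.21). The catalytic subunit Idh3a had 4699 and 4601, with -0.030 (interval -0.089 to 0.029), wholly below the interval of Idh3b. Idh3g, with 1959.6 and 2054, lay between them at 0.068 (interval -0.022 to 0.16). The oxoglutarate dehydrogenase complex, which follows, is made of Ogdh, Dlst and the Dld it shares with pyruvate dehydrogenase. Ogdh had 7147 and 7657, with 0.099 (interval 0.053 to 0.15). Dlst had 2841 and 2961, with 0.060 (interval -0.015 to 0.13), which held 0 and overlapped that of Ogdh.

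Succinyl-CoA ligase held the highest value of all members. Suclg1, the subunit common to both forms of the enzyme, had 1746 and 2039 normalised counts, a log2 fold change of 0.22 (interval 0.13 to 0.32). Sucla2, the partner for ATP, had 3452 and 3775, with 0.13 (interval 0.062 to 0.20). Suclg2, the partner for GTP, had 597 and 578, with -0.048 (interval -0.22 to 0.12), so the shared and the ATP subunit were higher in the library labelled OE and for the GTP subunit no difference was detectable. Fh1, fumarase, had 1470.2 and 1589.7, with 0.11 (interval 0.0091 to 0.22). Mdh2, the mitochondrial malate dehydrogenase that closes the cycle, had 5499 and 5447, with -0.014 (interval -0.068 to 0.041), and was level within counting error, with a sign that also turned with the scaling.

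Shares within a family of isozymes or subunits do not depend on scaling between libraries. They are shares of counts, which grow with transcript length, and so do not give the makeup of a family in molecules. Per length of the longest coding transcript, Aldoa held 64.7% and 66.2% of its family in the libraries labelled Control and OE. On that scale Idh3a held 30.3% and 28.1%, and Idh3b 45.1% and 47.6%. Of 11 such families, the exact binomial 95% intervals of the libraries stood apart in 4 and overlapped in 7. No such count was made for families of other genes, so 4 of 11 cannot be read as particular to these families. Over all genes that averaged 1000 counts or more, the counting interval of the single gene lay above 0 for 25.4% and below 0 for 21.8%. Given here first for the library labelled Control and then for that labelled OE, the share of Ldhb in lactate dehydrogenase counts was 81.2% (interval 80.5 to 81.9) and 82.5% (81.9 to 83.0). The share of Aldoa in aldolase counts was 50.5% (interval 50.01 to 51.0) and 52.2% (51.7 to 52.6), and that of Eno1 in the counts of Eno1 and Eno2 was 50.2% (interval 49.6 to 50.8) and 51.5% (50.9 to 52.0). So the heart-type subunit, the common aldolase and the common enolase each held slightly more in the library labelled OE. In the NAD-linked isocitrate dehydrogenase, the share of Idh3a was 42.6% (interval 41.6 to 43.6) and 39.9% (39.1 to 40.8) and that of Idh3b 39.7% (interval 38.7 to 40.6) and 42.3% (41.4 to 43.1). The largest of these shifts was in Idh3a, whose share dropped by 2.68 percentage points.

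The other 7 families had overlapping intervals, which does not show that their shares were equal. Hk1 made up 98.4% and 98.8% of hexokinase counts, and Pfkm 56.8% and 56.1%, Pfkp 29.9% and 31.1% and Pfkl 13.3% and 12.8% of phosphofructokinase counts. Slc2a1 made up 54.3% and 54.0% of the transporter pair. The cytosolic Mdh1 made up 76.9% and 77.7% of malate dehydrogenase counts and Idh1 67.4% and 65.01% of NADP-linked isocitrate dehydrogenase counts. Sucla2 made up 85.2% and 86.7% of the counts of the ligase partners, and Pdha1 69.5% and 68.4% of those of Pdha1 and Pdhb. The values are those of the libraries labelled Control and OE, in this order.

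**Figure D2:**
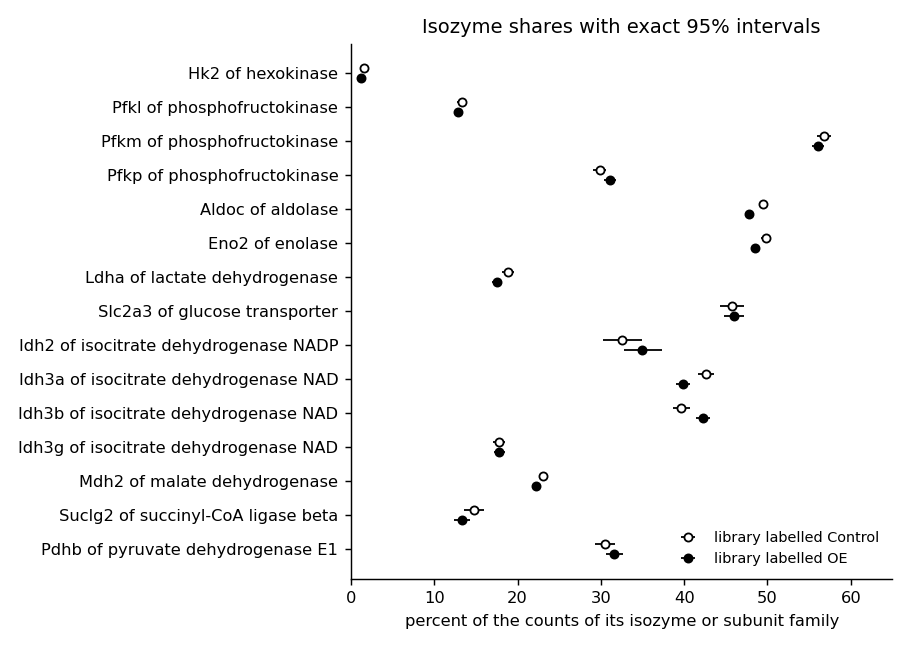
The x axis gives the percent that an isozyme or subunit held of the counts of its family, with 1 open point for the library labelled Control and 1 filled point for the library labelled OE, and bars for exact binomial 95% intervals. Where a family has only a pair of genes, the other gene holds the rest. The points of Idh3a (42.6% and 39.9%) and Idh3b (39.7% and 42.3%) shift in opposite directions, and those of Idh3g and Slc2a3 nearly coincide.

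To compare levels between genes, counts were divided by the length of the longest coding transcript in GENCODE M21 and by the library total, which gives counts per kilobase per 1000000 counts. On this scale Gapdh was the highest member, with 834 and 853 in the libraries labelled Control and OE, followed by Aldoa with 711 and 739 and Pkm with 559 and 627. The highest cycle genes were Mdh1 with 455 and 468 and Mdh2 with 199 and 196. Cs, often measured as a mark of mitochondrial content, had 109 and 110.4. The lowest cycle members were Aco1 with 11.2 and 10.1 and Suclg2 with 9.37 and 8.97, and Hk2 was lowest of all with 0.844 and 0.723. Hk1 and Ldha, at the start and the end of the pathway, were close to each other, with 67.3 and 75.3 and 75.4 and 76.7.

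The order depends on which transcript length is right for this tissue, and the length behind the counts is not given in the sources used here. With the median length of coding transcripts, which includes many short partial ones, Pkm came first with 1875 and 2102, ahead of Aldoa with 1383 and 1438 and Gapdh with 1098 and 1124, and Hk1, with 496 and 555, came above Tpi1 with 413 and 459.9, Pgk1 with 283 and 298 and Pgam1 with 257 and 279. Transcript length also went with the differences. Over the 39 members Spearman's rho between length and log2 fold change was -0.24, over the 20 cycle genes -0.46, and over 13871 tested genes with a length -0.18. Over the 19 glycolysis genes it was 0.065. Between mean count and log2 fold change, rho was 0.35 over the 39 members, 0.34 over the cycle and 0.049 over glycolysis, against 0.018 over the 13871 genes. These are descriptions across genes of the same pair of libraries, and the part of transcript length or count level in the results was not tested.

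**Figure D3:**
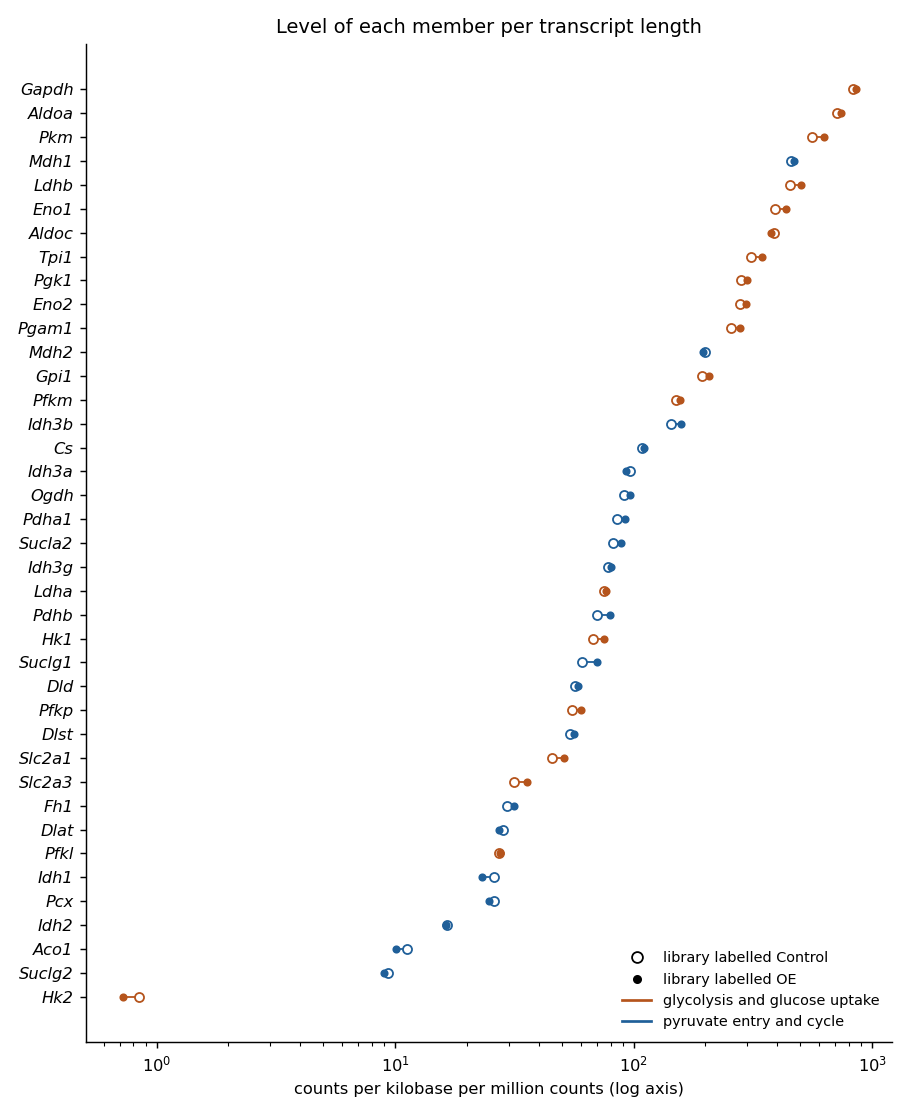
Counts per kilobase of the longest coding transcript per 1000000 counts are plotted on a log axis for each member, as an open point for the library labelled Control and a filled point for the library labelled OE. Levels span from below 1 (Hk2) to above 800 (Gapdh), and the points of each gene lie close together beside that span.

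Promoters are shown because the overexpressed factor binds DNA and many members lay on the same side of 0. RefSeq windows of 300 bases (250 before and 50 after a transcript start, GRCm38.p6) were matched by symbol for 37 of the 39 members, in 55 windows, some of which overlap. Idh3a and Slc2a3 had none. COUP-TFs bind pairs of the half-site AGGTCA, searched on both strands, and it stood in 7 of 29 glycolysis windows (24.1%) and 5 of 26 cycle windows (19.2%), against 16.3% of 32851 windows of all genes. Among windows with at least 55% G and C, which most member windows are, it stood in 6 of 23 (26.1%) and 4 of 20 (20%), against 11.7% of 14253. Members with it were Aldoa, Eno1, Fh1, Idh3g, Ldhb, Ogdh, Pcx, Pfkm, Pkm, Sucla2 and Tpi1. These 11 members gave 12 windows with it, because overlapping windows of Aldoa hold the same half-site. A lone half-site is a run of letters and not a shown binding site. Shown 5′ to 3′ in the direction of the gene, with the half-site in capitals on either strand, are a glycolysis member whose partner Ldha has no half-site (Ldhb, strand -, chr6:142507908-142508207), one with a half-site just after its start (Tpi1, strand -, chr6:124814109-124814408) and a cycle member (Sucla2, strand +, chr14:73552536-73552835).
Ldhb: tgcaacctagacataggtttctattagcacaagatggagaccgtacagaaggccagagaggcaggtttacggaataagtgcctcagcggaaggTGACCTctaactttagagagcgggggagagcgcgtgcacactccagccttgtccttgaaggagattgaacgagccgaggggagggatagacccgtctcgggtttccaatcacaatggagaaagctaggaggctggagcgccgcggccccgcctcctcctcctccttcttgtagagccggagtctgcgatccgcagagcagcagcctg
Tpi1: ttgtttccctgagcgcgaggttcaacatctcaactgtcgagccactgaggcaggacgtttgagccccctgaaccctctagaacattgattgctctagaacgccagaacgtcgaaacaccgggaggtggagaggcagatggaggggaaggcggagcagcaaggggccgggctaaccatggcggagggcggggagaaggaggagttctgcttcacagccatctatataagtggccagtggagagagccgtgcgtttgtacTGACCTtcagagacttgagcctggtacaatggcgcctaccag
Sucla2: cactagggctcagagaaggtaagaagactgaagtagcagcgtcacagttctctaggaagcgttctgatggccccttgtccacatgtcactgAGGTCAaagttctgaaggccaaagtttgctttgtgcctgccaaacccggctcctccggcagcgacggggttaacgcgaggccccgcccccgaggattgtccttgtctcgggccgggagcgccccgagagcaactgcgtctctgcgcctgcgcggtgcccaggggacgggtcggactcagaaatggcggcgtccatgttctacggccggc
Counted from the transcript start as 0, the half-site began at -157 in Ldhb, at 8 in Tpi1 and at -159 in Sucla2, and it was absent from both windows of Ldha.

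The core ACGTG or GCGTG, found in sites of the hypoxia-inducible factors that are known to drive glycolytic genes, stood in 22 of 29 glycolysis windows (75.9%) and 17 of 26 cycle windows (65.4%), against 43.8% of all windows. Member windows are rich in G and C, with a median of 59% and 61.2% against 52.7% of all windows. Among the 14253 windows with at least 55% G and C, 63.8% held the core, as did 19 of 23 such glycolysis windows (82.6%) and 13 of 20 such cycle windows (65%). The upstream window of Ldha (strand +, chr7:46845554-46845853) held 7 matches, the most of any member window, against 1 in Ldhb. The matches are in capitals, some overlap on opposite strands, and CACGTG reads as the core on both strands.
Ldha: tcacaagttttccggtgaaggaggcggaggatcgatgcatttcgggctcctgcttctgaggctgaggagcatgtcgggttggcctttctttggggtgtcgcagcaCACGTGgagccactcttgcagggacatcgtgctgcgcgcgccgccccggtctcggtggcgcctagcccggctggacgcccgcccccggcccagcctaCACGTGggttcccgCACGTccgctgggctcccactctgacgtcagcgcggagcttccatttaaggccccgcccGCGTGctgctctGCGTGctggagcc
Overlapping windows of the same gene, as for Eno1 and Aldoa, hold the same core matches and were each counted. The match counts are a description of letters, and their relation to the differences was not tested.

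Genes around both pathways were counted from lists written beside the members. Of 24 further genes of glycolysis, such as rarer isozymes, fructose bisphosphate regulators and lactate transporters, 23 had an entry and 19 passed the count minimum. Of these 19, 3 were higher and 3 lower by more than log2 0.2, with a median of 0.014, and Ldhc had 0 counts in both libraries. None of them had both a mean of at least 100 counts and an interval away from 0 past that threshold. Of 26 further genes of pyruvate handling, the cycle and its shuttles, 8 were higher and 1 was lower, against the 17.9% and 16.6% of all tested genes given above, but several of the 8 lay just past the threshold and 5 were higher after scaling by total counts, an alternative chosen after seeing the data. The median was 0.10. Of 7 genes of the pentose phosphate pathway, 1 was higher and 0 were lower, with a median of 0.055.

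Among those further genes Pdp1 and Pdk4, regulators of pyruvate dehydrogenase, differed more than any of its subunits. Pdp1, the phosphatase that switches the complex on, had 2418 normalised counts in the library labelled Control and 1611 in that labelled OE, or a log2 fold change of -0.59 (interval -0.68 to -0.49). Pdk4, a kinase that switches it off, had 256 and 397, with 0.63 (interval 0.40 to 0.87). The kinases Pdk1 and Pdk2 had 0.044 and 0.047, and both intervals held 0. Pdk3 had 0.19 and Pdp2 0.20, and their intervals held 0 as well. So an activating enzyme was lower and an inhibiting one higher, while the other kinases and Pdp2 were not separated from counting error.

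Entry of pyruvate and exchange with the cytosol also differed gene by gene. Mpc2 had 782 and 1019.6 normalised counts, with 0.38 (interval 0.25 to 0.52), whereas Mpc1, its partner in the mitochondrial pyruvate carrier, had -0.083 (interval -0.17 to 0.0024). The intervals of these partners did not meet, though the counts of Mpc2 were not whole, so some of its reads also matched other transcripts. Slc25a13, an aspartate and glutamate carrier best known from liver, had 0.46 (interval 0.18 to 0.75), and Slc25a12, the main form in brain, 0.11 (interval 0.040 to 0.18). The mitochondrial malic enzymes Me2 and Me3 had 0.41 and 0.32, and the cytosolic Me1 0.080. Acly, which makes acetyl-CoA from citrate in the cytosol, had 0.21, and Pgd of the pentose phosphate pathway 0.25. Sdhb, a subunit of succinate dehydrogenase, had 0.20 (interval 0.11 to 0.30), and Sdha, Sdhc and Sdhd had 0.086, 0.053 and 0.081.

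Dopaminergic and thalamus markers differed between the libraries by more than the members did. The summed level of 12 dopaminergic markers was 27790 normalised counts in the library labelled Control and 64486 in that labelled OE, and that of 8 thalamus markers was 8892 and 3002, with all 8 lower and Gbx2 at 0 in the library labelled OE. All 12 oligodendrocyte markers were lower, with sums of 401749 and 335755. Of 10 microglia markers 9 were below 0 (sums 5522 and 4347), of 9 endothelial markers 8 (6970 and 6371) and of 10 astrocyte markers 8 (68701 and 63649). Fewer were separated from counting error. The interval lay below 0 for 4 microglia, 4 endothelial and 3 astrocyte markers, and above 0 for 0, 1 and 2. Of 10 markers of neurons in general, 8 were above 0, with sums of 131464 and 147193 and a median of 0.19. Apart from Gbx2, no marker was at 0 in either library. Their part in the values of the enzymes was not tested, and with 1 library per group the makeup of the tissue and the genotype cannot be told apart.

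**Figure D4:**
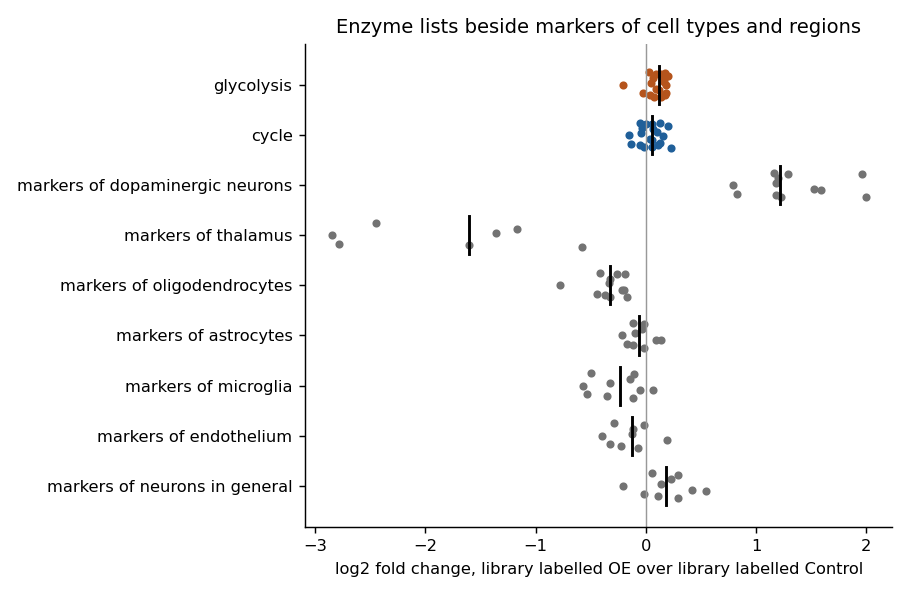
Each point is the log2 fold change of 1 gene (OE label over Control label) and each black line the median of its list, for glycolysis, the cycle and the marker lists, without Gbx2, which had 0 counts in the library labelled OE. Both enzyme lists lie in a narrow band near 0, between dopaminergic markers far to the right and thalamus markers far to the left.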

How the data were processed

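RNA of the ventral midbrain was sequenced in 2 libraries, labelled Control and OE, and each column was matched to its sample by the number that both share. Per the study's methods, the stranded libraries were made from polyadenylated RNA, sequenced as paired reads of 50 bases and run through a company pipeline. The authors deposited expected counts (estimated counts per gene from RSEM, not scaled), and the submitters' processing notes name mm10. The aligner, the RSEM version and the gene annotation are not given in the sources used here. Of 31252 gene entries, 12040 were at 0 in both libraries, and 95.4% of values were whole. RSEM gives fractions where reads match several transcripts, as for 6 members, and genes with near copies are less certain.

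Counts were scaled by TMM (edgeR 4.0.16, R 4.3.3). Log2 fold changes used a pseudocount of 0.5 and entries with at least 10 counts on average. For intervals, the split of the rounded counts between the libraries was given exact 95% Clopper-Pearson limits (scipy 1.17.1, with numpy 2.4.6, pandas 2.3.3 and Python 3.11.15). Intervals and floors cover counting error only, and the floor of 3 counts is 0.177 and 0.141 per 1000000 counts. With 1 library per group no test and no p-value was computed. The interval and the log2 estimate were tried on simulated counts that held counting error only and were scaled by total counts. The changes set there were larger than that of any member. Variation between libraries was not simulated, so the trial does not bear on it. The alternatives tried were other scalings (total counts, upper quartile, DESeq2 1.42.0 size factors), a pseudocount of 5, minimums of 0, 100 and 1000 counts (1000 was chosen after seeing the data), other thresholds and shorter lists. Members and lists were chosen with earlier results of these data known. By rule, the text names all members, Nr2f2, markers, and genes of the further lists with at least 100 counts on average that passed log2 0.2 with an interval away from 0. Their partners and Eno1b were added after their values were seen. Tigar had no entry under this symbol. Figures were drawn with matplotlib 3.10.9.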

Additional observations from a re-analysis of the deposited data

How the results depend on the processing

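No paired analysis was possible because only 1 library represents each group, and for the same reason none could be left out. The medians kept their direction under all their alternatives, from 0.096 to 0.13 for glycolysis and from 0.040 to 0.069 for the cycle, and the cycle minus glycolysis went from -0.063 to -0.040 without the 2 glucose transporters and to -0.071 with a minimum of 100 counts. Nr2f2 stayed between -1.08 and -1.06. Single members moved by less than their counting intervals in all 268 alternatives computed for them, and of these Idh2 and Mdh2, near 0, changed sign with the scaling. The median of all tested genes turned from 0.0046 to -0.011 with total counts.

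Counts near the threshold moved, since Pdhb, Slc2a3 and Hk2 lay beside it. Glycolysis genes higher past the threshold went from 0 to 1 with the upper quartile and 10 with log2 0.1. Those lower went from 1 to 0 with the upper quartile, a pseudocount of 5, minimums of 100 or 1000 counts, or an interval away from 0. Cycle genes higher went from 2 to 1 with total counts, DESeq2 size factors or a pseudocount of 5, and to 6 with log2 0.1. The 8 further cycle genes became 5 with total counts and between 7 and 9 under the other settings tried for them, all chosen after seeing the data. Cycle genes lower went from 0 to 2 with log2 0.1. Of all tested genes, 2723 were higher and 2536 lower. These became 4513 and 4497 with no count minimum, 1522 and 1377 with a minimum of 100 counts, 342 and 299 with a minimum of 1000 counts, 4669 and 4392 with log2 0.1, and 1509 and 1396 with an interval away from 0, all of which change by construction how many genes can pass.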
